A study of Mus with 4 samples.

Results

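In the mouse cochlea, the transcripts of Lars2, Gm46178, Gm15564 and Gm53756 were examined because the PRAISE reads at their pseudouridine (Ψ) sites were far more numerous in one replicate than in the other. All sites listed for these 4 genes were taken, which gave 37 of the 755 sites of the table. Lars2 held 19 of them, Gm46178 13, Gm15564 4 and Gm53756 1. The uneven reads were what chose the genes, so the read ratios between replicates are given as a description and were not tested. Values in both replicates were listed at 27 of the 37 sites.

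The samples were cochlear tissue of mice with the Otof c.1315 C>T (p.R439X) nonsense mutation, without RESTART treatment, in 2 replicates. Otof encodes otoferlin, a protein needed for transmitter release by inner hair cells, and the mutation was introduced by genome editing. The RESTARTv3 samples carry the same mutation and were not analysed here. In the study's methods, mutant mice were 4 weeks old when they were assigned to treatment irrespective of sex, and cochleae for Ψ mapping were taken 4 weeks after injection. The sources used here do not give the age of the untreated animals at collection, the sex of each or any pooling, and the table lists Ψ sites rather than expression, so cochlear markers could not be checked in it.

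Ψ is an isomer of uridine made by stand-alone Ψ synthases or by dyskerin with H/ACA guide RNAs, and it is abundant in ribosomal, transfer and small nuclear RNA. In PRAISE, sulfite and bisulfite alter Ψ so that reverse transcriptase skips it, and reads over a modified uridine lack that base, which is counted as a deletion. Each replicate had a PRAISE library with this chemistry and a control library without it. The modification level is the percentage of reads with a deletion in the PRAISE library minus that in the control library. A run of adjacent positions carries a single level, since the chemistry does not tell which uridine of the run was modified.

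Lars2 encodes the mitochondrial leucyl-tRNA synthetase, which charges mitochondrial transfer RNA with leucine, and human LARS2 variants are a known cause of Perrault syndrome with hearing loss. The RefSeq gene table classes Gm46178 and Gm15564 as long non-coding RNAs, for which no function is given here, while Gm53756 is known here by its name only. The Lars2 sites were the only ones among 22 genes of mitochondrial aminoacyl-tRNA synthesis. No site was listed for 18 other aminoacyl-tRNA synthetase genes or for 9 ribosomal RNA gene symbols. Of 16 Ψ synthase and H/ACA protein genes, Dkc1 alone had a site. Whether the transcripts used for alignment held all of these genes was not examined.

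Within each transcript the sites lay close together. The 19 Lars2 sites fell between positions 3416 and 3703 of the transcript, a stretch of 288 positions on the plus strand of chromosome 9 (GRCm39, 123290928 to 123291215). The 13 Gm46178 sites spanned positions 48 to 254 on the plus strand of chromosome 1 (190853146 to 190853352). The 4 Gm15564 sites spanned positions 33 to 156 on the minus strand of chromosome 16 (35802064 to 35802187), and the Gm53756 site lay at positions 629 to 630 on the minus strand of chromosome 12 (99611577). In each gene with several sites the distance between transcript position and chromosome coordinate was the same at all sites, so no intron separated them. Whether the sites are in coding or untranslated sequence was not analysed here. The gene span of Gm15564 overlaps Parp9 and Kpna1 in the gene table, and that of Lars2 overlaps Gm46137, so reads of these genes may be less certain. Strand was not considered, and whether these overlaps reach the sites was not examined.

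Joining sites at most 20 positions apart gave 14 clusters, of which 4 were in Lars2, 6 in Gm46178, 3 in Gm15564 and 1 in Gm53756. In Lars2 the clusters covered positions 3416 to 3435 with 3 sites, 3474 to 3484 with 2 sites, 3526 to 3594 with 7 sites and 3623 to 3703 with 7 sites. Runs made up 10 of the Lars2 sites and 3 of the Gm46178 sites.

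How uneven the reads were was described first. The number of PRAISE reads in replicate 2 was higher than in replicate 1 by a median factor of 64.7 at 18 Lars2 sites, 101 at 6 Gm46178 sites, 89.3 at 2 Gm15564 sites and 87.7 at the Gm53756 site. The ratio was 0.984 at 429 sites of other genes, leaving out Gm26917, and 69.01 at 44 sites of Gm26917, a predicted gene with a like pattern. The lowest ratio among the 4 genes was 21.9, at Lars2 positions 3418 to 3419 with 153 and 7 reads in replicates 2 and 1. The highest ratio of another gene was 6.0, at Mir1983 with 12 and 2 reads. No ratio of the 4 genes overlapped those of genes other than Gm26917. This gap is in the same ratio by which the genes were chosen, so it is no separate result.

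**Figure D1:**
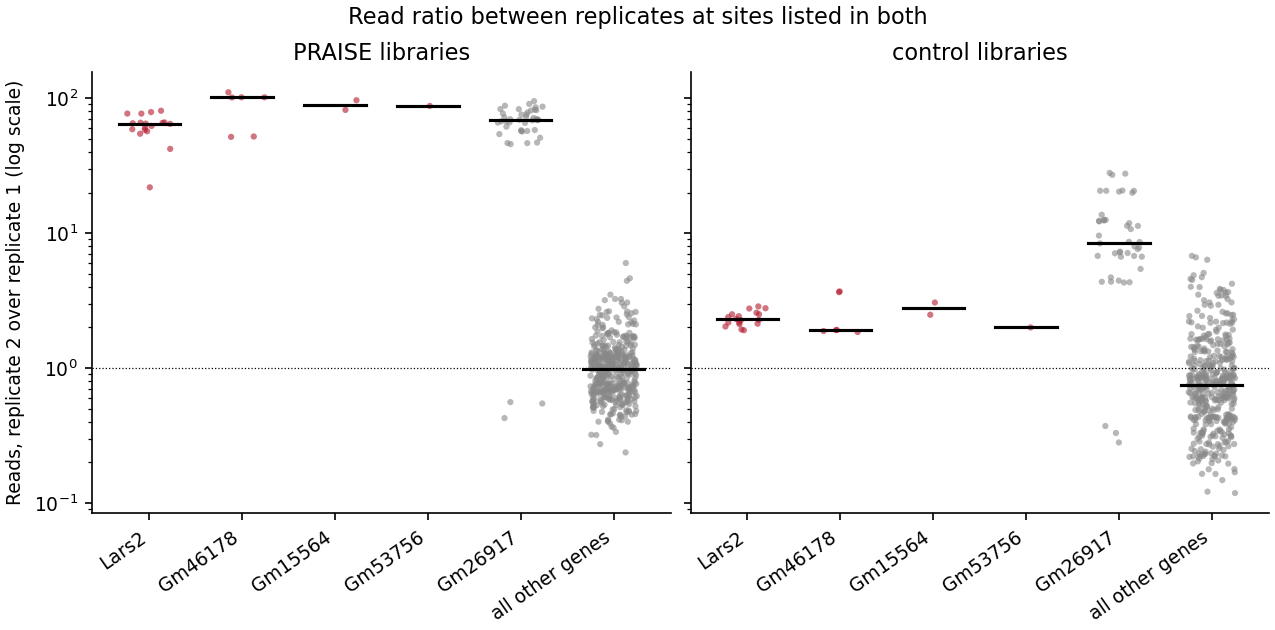
Reads in replicate 2 over replicate 1 at sites listed in both, on a log axis, for PRAISE libraries (left) and control libraries (right). Points are sites and bars are medians. In the PRAISE libraries the 4 genes lie between 21.9 and 111, while in the control libraries they lie between 1.85 and 3.70, within the range of all other genes (0.118 to 6.78).

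The control libraries showed a far smaller imbalance. For control reads the ratio of replicate 2 over replicate 1 was 2.30 at the median in Lars2 (range 1.91 to 2.86), 1.91 in Gm46178 (1.85 to 3.70), 2.77 in Gm15564 (2.48 to 3.06) and 2.0 in Gm53756. All 27 of these ratios lay within the range of 0.118 to 6.78 at other genes, where the median was 0.749. Gm26917 differed from the 4 genes here, with a median control ratio of 8.49. These differences in ratio were not tested, since the genes had been chosen by their reads. The origin of the additional PRAISE reads in replicate 2 was not tested either, and their alignment to other transcripts was not analysed here.

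The balance of PRAISE and control reads therefore turned over between replicates. At the 27 sites, PRAISE reads outnumbered control reads at 25 sites in replicate 2 and at 6 sites in replicate 1. Of 429 sites of other genes they did so at 82 and 97, and of 44 Gm26917 sites at 41 and 32. The counts of the 4 genes depend on the PRAISE reads by which the genes were chosen. The median of PRAISE over control reads was 6.84 in replicate 2 and 0.269 in replicate 1 for Lars2, and 30.1 and 0.589 for Gm46178. At other genes these medians were 0.607 in replicate 2 and 0.394 in replicate 1. In replicate 2 the 37 sites made up 4.21% of the PRAISE reads and 1.91% of the control reads summed over listed sites. In replicate 1, where 27 of them had counts, the shares were 0.849% and 0.391%. A read that covers several sites counts at each of them, and the sums over all listed sites were 10615202 PRAISE and 1562757 control reads in replicate 2 and 818958 and 2801365 in replicate 1.

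Reads along Lars2 followed the same profile in both replicates but not in both kinds of library. PRAISE reads numbered 5642 in replicate 2 and 87 in replicate 1 at positions 3542 to 3543. They reached 53747 and 681 at positions 3623 to 3624, which was 9.53 and 7.83 times as many. At position 3644, the next site, they were down to 5924 and 77. Control reads at these 3 sites in turn did not peak but went down, with 1396, 1149 and 744 reads in replicate 2 and 576, 543 and 349 in replicate 1. The step from positions 3623 to 3624 to position 3644 was 9.07-fold and 8.84-fold in PRAISE reads of replicates 2 and 1, and 1.54-fold and 1.56-fold in control reads. The peak of PRAISE reads at positions 3623 to 3624 thus had no counterpart in the control reads, which were highest at position 3565 in replicate 2 (1650) and at position 3580 in replicate 1 (733).

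Across the 18 Lars2 sites, which share reads, Spearman's rank correlation of reads between replicates was 0.976 for PRAISE and 0.922 for control libraries. Between PRAISE and control reads it was 0.602 within replicate 2 and 0.488 within replicate 1. The lowest PRAISE depth was in the first cluster, with 153 to 379 reads in replicate 2 and 7 and 9 reads in replicate 1, where control libraries held 658 to 855 and 324 to 448 reads.

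**Figure D2:**
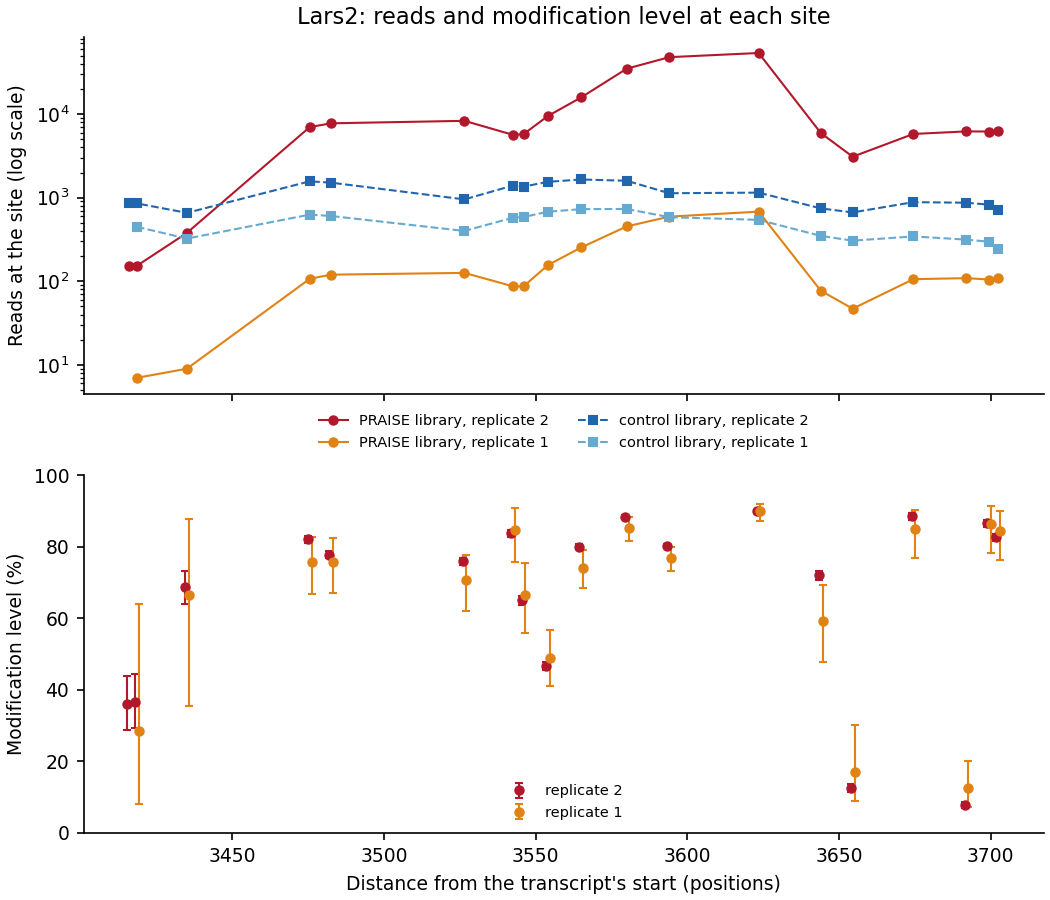
Reads (top, log axis) and modification level (bottom, %) at the Lars2 sites against the distance from the transcript's start, with points at the middle of a run and lines joining listed sites. Error bars are 95% score intervals of the level. PRAISE reads peak at positions 3623 to 3624 with 53747 reads in replicate 2 and 681 in replicate 1, and the levels of both replicates lie together, with the low sites at positions 3654 to 3655 and 3692.

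Levels at the sites assigned to Lars2 were high over most of this stretch. Whether the reads came from Lars2 RNA was not tested. Of 16 sites with 20 or more reads in each of the libraries, 13 had a mean level over 60%, and the median was 77.9% (interquartile range 65.7% to 84.9%). The highest was at positions 3623 to 3624, with a deletion in 48558 of 53747 PRAISE reads in replicate 2 and 618 of 681 in replicate 1. The control libraries had a deletion there in 3 of 1149 and 4 of 543 reads. The levels were 90.1% and 90.0%, a mean of 90.0% ± 0.0510 (SD, n = 2).

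In the cluster from 3526 to 3594, levels varied between neighbouring sites. Positions 3542 to 3543 had 83.8% in replicate 2 and 84.9% in replicate 1. Position 3546, at nearly the same depth (5755 PRAISE reads in replicate 2 and 87 in replicate 1, against 5642 and 87), had 65.02% and 66.5%. Position 3554 had 46.8% and 48.9%. Further along, levels were 80.1% and 74.1% at position 3565 and 88.5% and 85.3% at position 3580, the highest of this cluster. Depth rose along these 5 sites to 34871 PRAISE reads in replicate 2 and 453 in replicate 1 at position 3580. Their order by level was 3580, 3542 to 3543, 3565, 3546 and 3554 in both replicates. The Wilson 95% intervals of the PRAISE ratio overlapped for 0 of the 4 pairs of neighbours in this order in replicate 2 and for 4 of 4 in replicate 1, as at positions 3580 and 3542 to 3543 (82.4% to 88.8% and 76.1% to 91.05%). Positions 3526 to 3527 and 3594 of this cluster were left out of the order. They had 76.1% and 80.4% in replicate 2 and 70.7% and 76.9% in replicate 1. In replicate 2 the interval of position 3594 (80.1% to 80.8%) overlapped that of position 3565 (79.6% to 80.8%). The separation in replicate 2 thus holds for the 5 ordered sites only. Overlap of separate intervals does not show that levels are alike, and differences between these sites were not tested.

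The last cluster held both the highest and the lowest Lars2 levels. Positions 3654 to 3655 had a deletion in 388 of 3089 PRAISE reads in replicate 2 and 8 of 47 in replicate 1, levels of 12.6% and 17.02%. Position 3692 was the lowest site, with 488 of 6203 and 14 of 109 reads, and levels of 7.87% and 12.5% (mean 10.2% ± 3.29, SD, n = 2). Both were flanked by high sites. Positions 3674 to 3675, between them, had 88.7% and 84.98%, and the sites at 3699 to 3700 and 3702 to 3703 had 86.8% and 82.8% in replicate 2 and 86.3% and 84.4% in replicate 1.

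The second cluster, at positions 3474 to 3477 and 3481 to 3484, had levels of 82.2% and 77.8% in replicate 2 and of 75.7% at both runs in replicate 1. The first cluster was measured over few reads. Its highest site, position 3435, had 68.9% in replicate 2 over 379 reads and 66.7% in replicate 1 over 9 reads, where the Wilson 95% interval of the PRAISE deletion ratio was 35.4% to 87.9%. Positions 3418 to 3419 had 36.7% over 153 reads and 28.6% over 7 reads (8.22% to 64.1%). Position 3416, listed in replicate 2 alone, had 36.02% over 153 reads (29.4% to 44.5%). These intervals cover counting error only.

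In replicate 2, Gm46178 held both the deepest and the shallowest sites of the 4 genes. PRAISE reads were most numerous at its last site, positions 253 to 254, with a deletion in 83645 of 87320 reads in replicate 2 and 1610 of 1678 in replicate 1. The levels were 95.4% and 95.9%, the highest mean of the 4 genes (95.7% ± 0.357, SD, n = 2). Control deletions numbered 10 of 2864 reads in replicate 2 and 0 of 784 in replicate 1, and a count of 0 allows a ratio of up to 0.383%.

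The first cluster of Gm46178 held its lowest site beside high ones at nearly equal PRAISE depth. Position 48 had a deletion in 619 of 8408 PRAISE reads in replicate 2 and 6 of 83 in replicate 1, levels of 7.36% and 7.23%. Positions 62 to 63 had 68.05% and 64.4% over 8435 and 83 reads. Position 67 had 73.6% and 79.5% over 8433 and 83 reads. The spread of levels within these 20 positions was thus far wider than the difference between replicates at any of them.

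Of the Gm46178 sites, 7 had values in replicate 2 alone. Between positions 91 and 103, 5 single positions had 14.3% to 39.1%, the highest at position 97 with 9 deletions in 23 reads (Wilson 95% interval 22.2% to 59.2%). PRAISE reads of replicate 2 numbered 28 at position 91 and 8433 at position 67, 301 times as many, while control reads were 204 and 297. Position 155 had a deletion in 8 of 15 PRAISE reads, a level of 53.3% (30.1% to 75.2%), and in 0 of 27 control reads, which allows a control ratio of up to 11.1%. Levels between positions 91 and 155 therefore rest on 15 to 45 reads of a single replicate.

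The fourth cluster lay at positions 184 and 186. Position 186 had 43.2% in replicate 2 over 2324 PRAISE reads and 51.1% in replicate 1 over 21 reads. Position 184 had 23.9% over 1735 reads in replicate 2 (Wilson 95% interval 21.9% to 25.9%) and no value in replicate 1. The next site, positions 216 to 217, had 35.2 times the PRAISE reads of position 186 in replicate 2 and 75.2 times in replicate 1.

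The ratio of PRAISE reads between replicates was not the same along Gm46178. It was 101 to 102 at the 3 sites from position 48 to 67, with counting intervals of 81.6 to 126, and 111 at position 186 (72.02 to 170.1). At positions 216 to 217 and 253 to 254 it was 51.7 (49.2 to 54.4) and 52.04 (49.6 to 54.6). Control reads went the other way, with ratios of 1.85 to 1.92 at the first 4 of these sites, against 3.70 and 3.65 at the last 2.

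**Figure D3:**
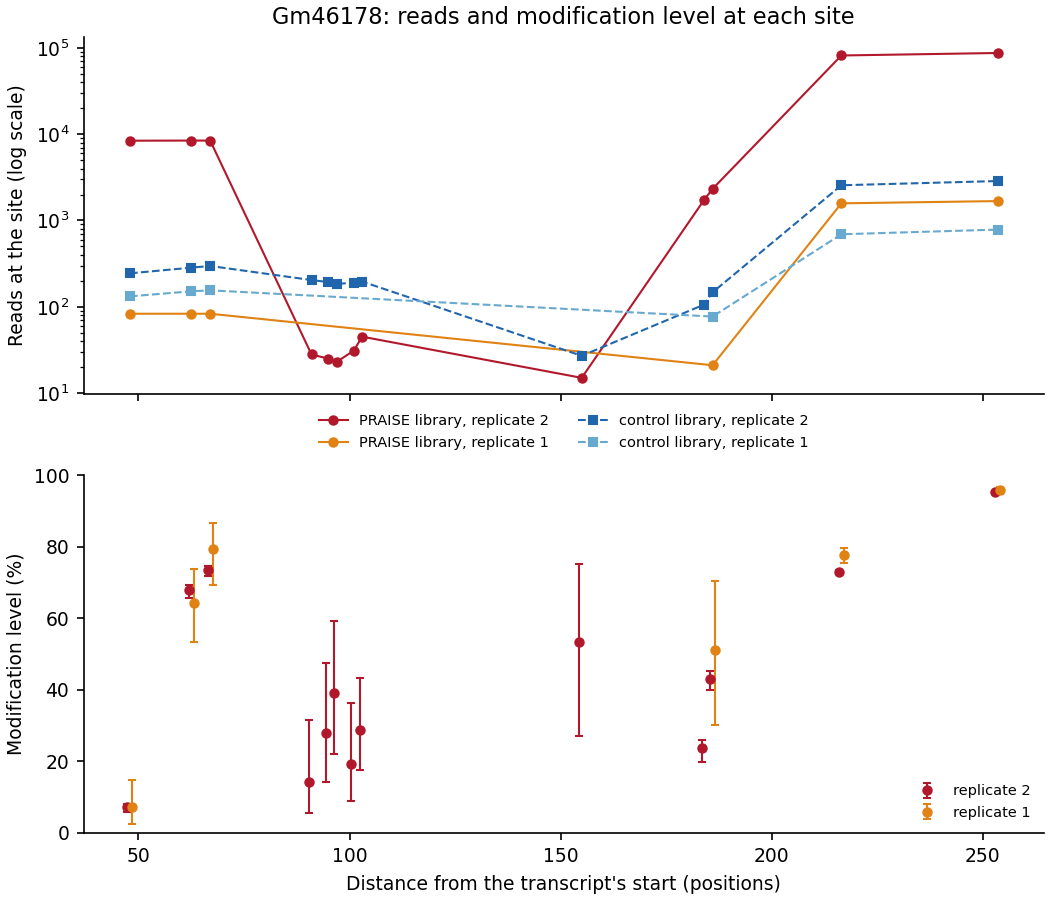
Reads (top, log axis) and modification level (bottom, %) at the Gm46178 sites against the distance from the transcript's start, with points at the middle of a run. Error bars are 95% score intervals of the level, and lines join listed sites, so they pass over sites without a value in replicate 1. PRAISE reads of replicate 2 lie at 15 to 45 from position 91 to 155 and at 87320 at positions 253 to 254.

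In Gm15564, position 33 had the highest level. It showed a deletion in 8743 of 9274 PRAISE reads in replicate 2 and 90 of 96 in replicate 1, levels of 94.3% and 93.8%. No control read had a deletion, among 104 and 34 reads, which allows control ratios of up to 2.88% and 8.82%. Position 97 had 74.02% in replicate 2 over 4915 reads and 55.8% in replicate 1 over 60 reads. Control reads were more numerous at position 97 than at position 33, with 571 and 230 reads, while PRAISE reads were fewer.

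The third cluster of Gm15564 was listed in replicate 2 alone. Positions 152 to 153 had 52.6% over 164 PRAISE reads (Wilson 95% interval of the PRAISE ratio 45.4% to 60.5%) and positions 155 to 156 had 51.8% over 114 reads (42.7% to 60.7%). Control reads outnumbered PRAISE reads there, with 447 and 264 reads. PRAISE reads at position 97 were 29.97 times as many as at positions 152 to 153, and control reads 1.28 times as many.

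Gm53756 had a single site, positions 629 to 630. It showed a deletion in 2755 of 2981 PRAISE reads in replicate 2 and 31 of 34 in replicate 1, levels of 92.4% and 91.2%. Its control libraries held only 36 and 18 reads without a deletion, which allows control ratios of up to 8.33% and 16.7%. The site therefore missed the minimum of 20 control reads in replicate 1 and was not called in both replicates, while it was called in replicate 2 alone. In the test of its deletion ratio between replicates it had a Fisher exact p of 0.741 (adjusted p = 1).

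The 10 sites without a value in replicate 1 all had a value in replicate 2, and no site of the 4 genes was listed in replicate 1 alone. Values in both replicates were found at 27 of 37 sites (73.0%), beside 66.2% of the 755 sites of the table. Dividing the PRAISE reads of replicate 2 by the median read ratio of the gene left 0.148 to 2.36 reads at 9 of the 10 sites and 17.1 reads at Gm46178 position 184. The ratio varied within a gene. Lars2 positions 3418 to 3419 had 153 reads in replicate 2, as position 3416 did, and 7 in replicate 1. Whether depth accounts for the missing values was not tested. A site that missed the authors' rules carries no value, so its level in replicate 1 is unknown.

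Whether levels differed between replicates was examined by a two-sided Fisher exact test on deletion and other PRAISE reads. Each replicate had to hold 20 PRAISE reads or more, which left 441 sites of the table for Benjamini-Hochberg adjustment. Of 25 sites of the 4 genes tested, 1 passed, beside 2.27% of all sites tested. This site, Gm46178 positions 216 to 217, had a deletion in 60006 of 81704 PRAISE reads in replicate 2 and 1231 of 1580 in replicate 1. The levels were 73.1% and 77.8%, and the PRAISE ratio of replicate 2 minus replicate 1 had an interval of -6.47 to -2.33 points (Newcombe 95% interval, Fisher exact adjusted p = 0.00404). The test sets 2 samples against read sampling alone, so the spread among animals was not measured.

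The other 24 tested sites did not pass, and the intervals show how much could have been missed. The difference was largest at Gm15564 position 97, 74.02% in replicate 2 and 55.8% in replicate 1, where the interval of the PRAISE ratio difference was 6.05 to 30.5 points (Fisher exact p = 0.0027, adjusted p = 0.0865). Lars2 position 3644 came next, with 72.2% over 5924 reads and 59.2% over 77 reads (interval 2.73 to 24.3 points, Fisher exact p = 0.0141, adjusted p = 0.208). Lars2 position 3565 was the third with an unadjusted p under 0.05 (Fisher exact p = 0.0263, adjusted p = 0.293). Counting the site that passed, 4 of 25 tested sites of the 4 genes had an unadjusted Fisher exact p under 0.05. So did 53 of all 441 sites tested, with 41 of 372 in other genes and 8 of 44 in Gm26917. Such unadjusted values were thus found across the table as well.

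Some larger differences rested on few reads in replicate 1. At Lars2 positions 3418 to 3419, with 7 reads there, the difference of 8.10 points had an interval of -27.6 to 30.5 points and was not tested. Gm46178 position 186 differed by -7.92 points over 21 reads in replicate 1 (interval -28.6 to 10.9 points), and Lars2 positions 3474 to 3477 by 6.48 points over 107 reads (-1.29 to 14.7 points). By contrast, positions 3623 to 3624 of Lars2 and 253 to 254 of Gm46178 differed by 0.0722 and -0.505 points, with intervals of -2.37 to 2.02 and -1.01 to 0.905 points.

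At the 24 sites with 20 or more reads in each library, 14 levels were higher and 10 lower in replicate 2, and Pearson's r of the levels was 0.975 across these sites, which share reads. The median absolute difference was 3.33 points at the 16 Lars2 sites. These had 47 to 681 PRAISE reads in replicate 1, and 245 sites of other genes with as many reads there had a median absolute difference of 3.03 points. Depth in replicate 2 was not matched, so counting error was unlike. Median PRAISE reads there were 6278.5 at 18 Lars2 sites and 142 at 429 sites of other genes, all listed in both replicates. The levels themselves were unlike, with a median of 77.9% at the Lars2 sites and of 22.96% at those 245 sites. This difference between genes was not tested, since sites of a transcript share reads.

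**Figure D4:**
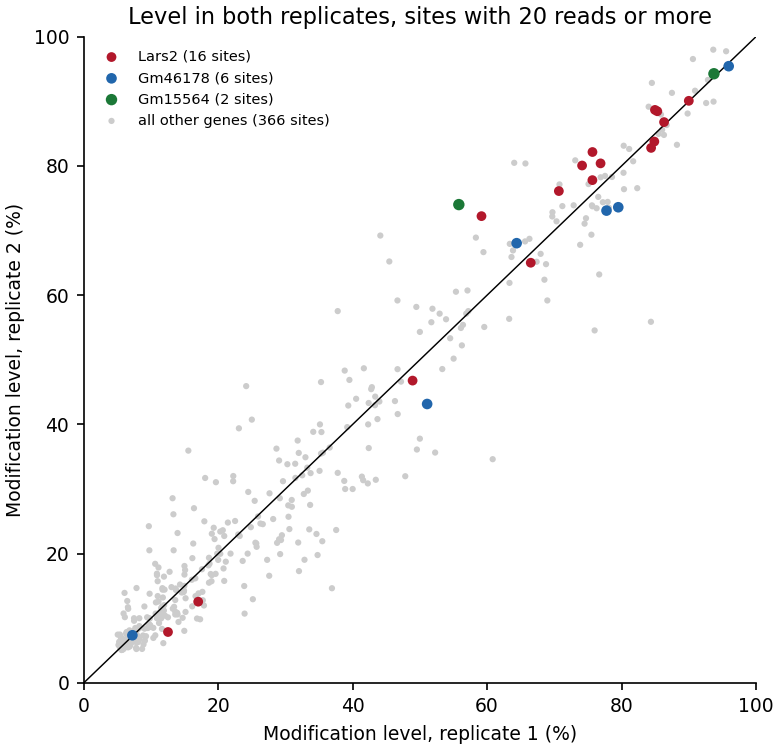
Modification level (%) in replicate 1 against replicate 2 at sites with 20 or more reads in each library, with the line of equality. Points are sites, 16 of Lars2, 6 of Gm46178, 2 of Gm15564 and 366 of other genes, without Gm26917. The Lars2, Gm46178 and Gm15564 sites follow the line, with the widest gap at Gm15564 position 97 (74.02% in replicate 2 and 55.8% in replicate 1).

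High levels were common where both replicates had enough reads. These 24 sites were of Lars2, Gm46178 and Gm15564, as the Gm53756 site had too few control reads. A mean level over 60% was found at 19 of the 24 (79.2%), beside 17.2% of 366 sites of other genes and 61.4% of 44 Gm26917 sites. Under 20% were 3 of the 24, Lars2 positions 3654 to 3655 and 3692 and Gm46178 position 48. Of other genes 167 of 366 sites were under 20%, and of Gm26917 5 of 44. The median mean level was 76.7% for the 24 sites, 76.9% for Gm26917 and 22.96% for other genes. Runs among the 24 had a median of 81.3% (12 sites) and single positions of 65.7% (12 sites), which is given as a description.

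The minimum of reads left out the 10 sites listed in replicate 2 alone, which had levels of 14.3% to 53.3%. Over all 37 sites, a count added after the values were seen, the level of replicate 2 was over 60% at 21 (56.8%), beside 118 of 562 sites of other genes and 28 of 47 Gm26917 sites with a value there. By gene these were 14 of 19 Lars2 sites, 4 of 13 Gm46178 sites, 2 of 4 Gm15564 sites and the Gm53756 site. The share over 60% was thus lower in Gm46178 than in Lars2 when every listed site was counted, which was not tested.

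Deletions were rare in the control libraries. The control ratio at these 24 sites had a median of 0.273% in replicate 2 and 0.327% in replicate 1, against PRAISE ratios with medians of 77.3% and 76.2%. Its highest values were 1.06% at Gm46178 positions 62 to 63 in replicate 2 (3 of 284 reads) and 1.30% at Gm46178 position 186 in replicate 1 (1 of 77 reads). No control deletion was seen at 8 of 27 sites in replicate 2 and 9 in replicate 1. Of 500 sites of the table listed in both replicates, 277 and 264 had none, so this was more common across the table. The authors' rules had removed sites with a control ratio over 5%, so the low ratio is partly set by selection.

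Control ratios were compared between replicates by the same test over 477 sites with at least 20 control reads in each. None of 26 sites of the 4 genes passed, beside 0.210% of all sites tested. By the Fisher exact test, 2 of the 26 had an unadjusted p under 0.05, both in Lars2, beside 11 of all 477 sites. Gm26917 had 5 of 44 such sites and other genes 4 of 407. Bonferroni adjustment also gave 0 of the 26. Position 3594 had a control deletion in 1 of 1130 reads in replicate 2 and 6 of 585 in replicate 1 (Fisher exact adjusted p = 0.829). At positions 3474 to 3477 the counts were 4 of 1569 and 6 of 627.

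All 24 sites with 20 or more reads in each library were called in both replicates against the control (p under 0.005, control ratio under 5%, level over 5 points), beside 98.6% of such sites in the table. The listed sites had passed nearly the same rules, so this count says little about the 4 genes. Those without a call in both were the 10 sites listed once, Lars2 positions 3418 to 3419 and 3435 and the Gm53756 site.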

How the data were processed

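Ψ was measured by PRAISE in cochlear tissue of untreated Otof c.1315 C>T mice, in 2 replicates with a PRAISE and a control library each. Per the labels, the molecule was polyA RNA, while the study's methods describe removal of ribosomal RNA and fragmentation, followed by a stranded total RNA library. The submitters' processing notes name cutadapt 4.2, UMI-tools 1.0.0 and GRCm39. Using read 2, the authors removed identical reads, cut off molecular identifiers, thinned all libraries to a common size and aligned with PRAISE-tool to RefSeq transcripts. Identical reads were removed before identifiers were cut, and how reads matching several transcripts were assigned was not given in the sources used here.

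The deposited counts were deletion and total reads at a site in each library, without normalization. The deposited ratios and levels were fractions, namely the deletion fraction of a library and the PRAISE minus the control fraction. Deposited p-values compared both libraries of a replicate in a contingency table. The authors kept a site in a replicate by p-value, control ratio and level, and a site that missed them carried no value.

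The members and lists were chosen with earlier results of these data known. Levels were recomputed from the counts. Two-sided Fisher exact tests compared libraries at a site, with Benjamini-Hochberg adjustment over the whole table for the replicate tests, called at adjusted p under 0.05. Minimum depth was 20 reads. Wilson and Newcombe score intervals at 95% and counting intervals of read ratios cover counting error only, and a count of 0 was taken to allow 3 reads. The replicates are separate samples by their labels, and nothing says that they came from separate animals. Every listed site was counted. Full values were given for the highest, lowest and deepest site of each gene, the highest of each cluster, sites past a replicate test, the 5 largest replicate differences and sites listed once, beside neighbours added after their values were seen. Gene classes came from a RefSeq gene table of GRCm38.p6, which held 3 of the 4 genes. A genome, transcript sequences and the RESTARTv3 samples were not used here. Tests were checked on simulated data. The tools were SciPy 1.17.1, pandas 2.3.3 and NumPy 2.4.6 under Python 3.11.15.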

Additional observations from a re-analysis of the deposited data

How the results depend on the processing

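Calls in both replicates (24 sites) numbered 21 to 25 at a minimum of 10 or 50 reads or a level over 10 points, and 24 to 36 with either replicate left out. The replicate test gave 1 site of the 4 genes and the control replicate test 0 in every setting tried. The median level of the 24 sites (76.7%) was 68.1% as a mean and 75.7% to 77.0% with either replicate left out. The median ratio of PRAISE reads (65.7) was 63.9 from summed reads and 64.1 when divided by the median of other genes. That of control reads (2.28) was 2.48, 2.83 and, with 20 reads in all libraries, 2.35. From summed reads, PRAISE over control reads were 16.3 in replicate 2 and 0.634 in replicate 1, against medians over sites of 8.70 and 0.346, as deep sites weigh more in a sum. Clusters numbered 23 when joined at up to 10 positions and 8 at up to 40, so their number follows the distance chosen.

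Without subtraction of the control ratio, 26 of 27 mean levels moved by less than the replicate SD, and Lars2 positions 3623 to 3624 went to 90.5%. Leaving out a replicate moved a mean level by a factor of up to 1.30, at Lars2 position 3692. No paired analysis was possible because the RESTARTv3 samples were not analysed here. Depth in replicate 1 limits what could be seen, with 7 to 1678 PRAISE reads at the 27 sites.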
